A study of Homo sapiens and Mus musculus with 92 samples.

Results

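HEL is an established human erythroleukaemia line, labelled as human erythroblast. Its RNA-seq set for the study of MLL1 (KMT2A) holds 6 libraries, 3 of control cells and 3 of MLL1 knockdown (KD) cells, each numbered replicate 1, 2 or 3. The comparison described here sets the 2 libraries numbered replicate 1 (control replicate 1 and MLL1 KD replicate 1) against the 4 libraries numbered 2 and 3, of 92 samples in the whole series, with knockdown as a covariate. It describes a difference among libraries of the same cells, apart from the knockdown. The control cells are of genotype WT and the other group of genotype MLL1 knockdown. By the study's methods both were transduced with lentivirus, the controls with a TRC control shRNA and the KD cells with 1 shRNA against MLL1 (MLL1 shRNA #1), so that each group is a transduced population rather than a clone, and effects of that shRNA on other genes cannot be told apart from loss of MLL1. All 6 libraries share the same cell line and the same medium, RPMI-1640 with fetal bovine serum and antibiotics, and all were made from polyadenylated RNA in a strand-specific way.

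The labels name 2 kits for RNA extraction and 3 sequencer models for these samples without assigning them to libraries. Whether replicate 1 was a separate culture, a separate extraction or a separate sequencing run is not given in the sources used here, so that culture and preparation cannot be told apart, and in bulk RNA fewer cells of a type and less RNA per cell cannot be told apart either. Nothing states that the numbered replicates are separate cultures, and the p-values below measure the spread between these libraries, which may be technical. Total counts ranged from 6966345 to 10380241 per library and genes with at least 1 count from 16716 to 17325. Control replicate 1, with 7950659 counts, lay within the totals of replicates 2 and 3 (6966345 to 9159990), and MLL1 KD replicate 1, with 10380241, above them. Levels are given below as CPM (counts scaled by library total and TMM factor), always in the order of replicates 1, 2 and 3. KMT2A, the knocked-down gene, had 1321, 1298 and 1256 CPM in control cells and 812, 814 and 833 CPM in MLL1 KD cells. The 3 knockdown libraries lay below the 3 control libraries, and the replicate 1 difference of KMT2A was 0.01 ± 0.05 (SE) on the log2 scale with an adjusted p of 0.83.

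Erythroid markers were present in every library. GATA1, the master transcription factor of the erythroid lineage, ranged from 209.7 to 299.6 CPM, its partner TAL1 from 442 to 538 CPM, and the fetal globin gene HBG2 from 151 to 400.1 CPM. Markers of other cell types did not move as one group. Of 10 T and NK cell markers, 4 had at most 3 counts in every library and their summed level was 96.7 and 124 CPM in the replicate 1 libraries against 114 to 137 CPM in the others, nearly all of it CD4. Of 7 B cell markers, 4 had at most 3 counts throughout, with sums of 12.1 and 15.1 CPM against 9.92 to 15.0 CPM. Of 11 monocyte, macrophage and neutrophil markers, 4 had at most 3 counts throughout, and the sums of 17.03 and 26.5 CPM in replicate 1 lay below 28.6 to 35.8 CPM in the others. Fibroblast markers summed to 286 and 291 CPM against 194 to 219 CPM, most of it THY1, and epithelial markers to 56.5 and 61.8 CPM against 66.3 to 69.9 CPM. Markers at 0 in all 6 libraries numbered 1 each in the T cell, B cell and monocyte lists. The part of other cells in the results was not tested.

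Several systems that cells adjust to their growth state recur below. Cells that run short of membrane sterol release the SREBP transcription factors from the endoplasmic reticulum (ER), and these switch on cholesterol synthesis and sterol uptake. A load of unfolded protein in the ER raises ER chaperones through ATF6 and XBP1, and in the cytosol raises heat shock proteins through HSF1. Shortage of amino acids, heme or other stresses raise translation of ATF4, which switches on amino acid synthesis and transport genes. Ribosome assembly needs a large set of nucleolar factors that rise with growth, and replication-dependent histone genes are switched on in S phase and give mRNAs that end in a stem-loop in place of a poly(A) tail.

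Of 14393 genes tested, 3093 (21.5%) differed between replicate 1 and replicates 2 and 3 by 1.5-fold or more with an adjusted p below 0.05 (Benjamini-Hochberg, quasi-likelihood test of edgeR), which is what "called", "rose" and "fell" mean below. Rises, falls and values with an SE are log2 fold changes of replicate 1 over replicates 2 and 3 unless a fold or CPM is stated, and the size of a fall is given without its sign after "fell by". Of these, 1319 (9.16% of those tested) were higher in replicate 1 and 1774 (12.3%) were lower, and 317 and 805 of them differed by at least 2-fold. The 6 libraries did not overlap, both replicate 1 libraries lying above all 4 others, for 1245 of the higher genes, and both below for 1612 of the lower genes, where 46.2% of all genes tested were separated in one direction or the other. The difference was present in each group on its own. In control libraries alone, where 7.37% of all genes were called higher and 9.0% lower, these held 879 of the 1319 higher and 1071 of the 1774 lower genes. In MLL1 KD libraries alone, where 11.3% were called higher and 13.9% lower, they held 1160 and 1474, although each of these sets holds 1 replicate 1 library, which is then assumed to vary like the others. The fitted direction was the same in both groups for 1316 of the 1319 and for all 1774. These genes were chosen by a fit of the same 6 libraries, so that this agreement and the lack of overlap were largely fixed beforehand and are no support. The size of the difference was larger in KD cells, with a median log2 fold change of 0.90 against 0.72 in controls for the higher genes and -1.12 against -0.82 for the lower genes. Over all genes tested the median was -0.02. The called genes differed in level, with a median of 37.8 CPM for higher and 15.1 CPM for lower genes against 24.4 CPM for all, and less in GC content (median 51.3% for higher and 49.5% for lower genes, 48.5% for all) and in exon length (4528 and 4768 bases, 4779 for all).

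The direction was not spread evenly over gene groups. The plot of gene lists shows calls in sterol synthesis, heat shock proteins and ribosome biogenesis on the higher side alone, ER chaperones mostly there (11 higher, 2 lower), histones on the lower side alone and ATF4 targets mostly there (20 lower, 1 higher).

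**Figure D1:**
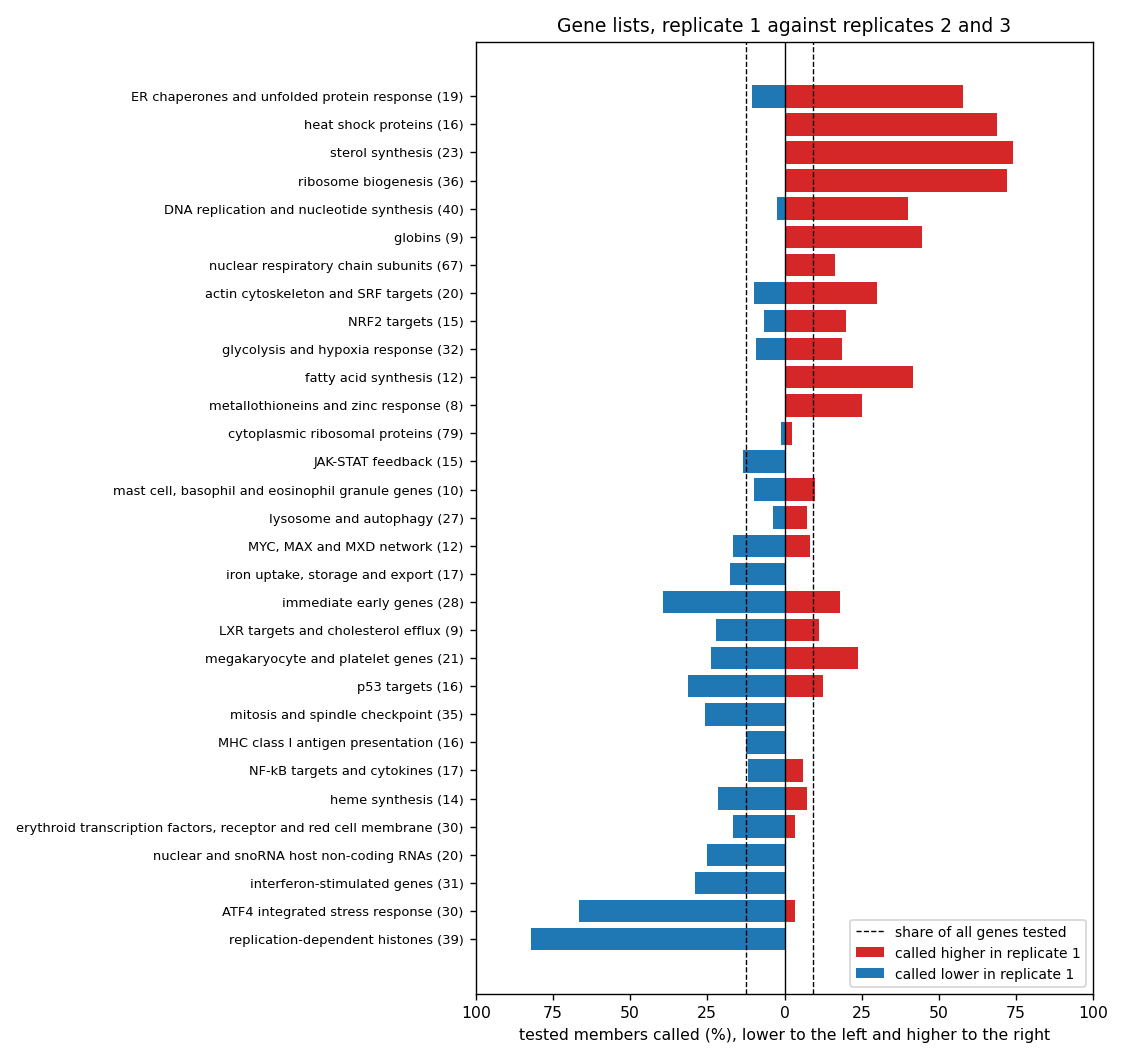
Share of the tested members of each gene list (number tested in brackets) that were called higher (red, to the right) or lower (blue, to the left) in replicate 1, in percent, ordered by the median log2 fold change of the list. The dashed lines mark the shares among all 14393 genes tested, 9.16% higher and 12.3% lower; 17 of 23 sterol synthesis genes lie on the right and 32 of 39 histone genes on the left.

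Most genes of sterol synthesis and uptake were higher in replicate 1. Of 24 listed genes 23 were tested, 17 rose and none fell, and the median log2 fold change was 0.93, against -0.02 over all genes. HMGCS1, which makes HMG-CoA at the start of the pathway, had 73.9, 13.3 and 15.4 CPM in control cells and 33.5, 10.3 and 9.83 CPM in MLL1 KD cells. DHCR7, which carries out the last step to cholesterol, had 111, 21.9 and 25.2 CPM in control cells and 98.1, 19.1 and 23.3 CPM in MLL1 KD cells. For both, the lowest replicate 1 library was above the highest of the others, with log2 fold changes of 2.07 ± 0.15 (SE) and 2.22 ± 0.10 (SE). MSMO1, which removes methyl groups from lanosterol-derived sterols, rose by 1.94 ± 0.16 (SE). INSIG1, which holds the SREBP complex back in the ER, rose by 1.71 ± 0.11 (SE). SREBF2, which encodes SREBP2, rose by 0.65 ± 0.06 (SE). The 6 members not called were IDI1 at 0.57, STARD4 at 0.41, SC5D at 0.27, HSD17B7 at 0.26, and PMVK and TM7SF2 near 0. The median of the list was 0.95 in control libraries alone and 0.93 in MLL1 KD libraries alone, and no member was called in the test of the difference between the groups.

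In fatty acid synthesis 5 of 12 tested genes rose, none fell and the median was 0.22. FASN, the fatty acid synthase itself, had 2151, 709 and 717 CPM in control cells and 2102, 688 and 701 CPM in MLL1 KD cells. Its replicates agreed closely on each side, which gave it the lowest adjusted p among the rises (1.596 ± 0.04 (SE), adjusted p = 8.3e-16). The enzymes just upstream and downstream moved with it. ACLY, which makes cytosolic acetyl-CoA, rose by 0.81 ± 0.06 (SE), ACACA, which makes malonyl-CoA, by 0.89 ± 0.08 (SE), and the desaturase SCD by 1.03 ± 0.07 (SE). PNPLA3, a lipid droplet protein at a low level, rose by 0.94 ± 0.31 (SE), a call lost without control replicate 1 or 2. SREBF1 was not called, at 0.07 ± 0.08 (SE), nor were the desaturases FADS1 (-0.14) and FADS2 (0.14). On the efflux side, targets of the sterol-sensing receptor LXR gave 1 rise and 2 falls among 9 tested, with a median of -0.13. ABCA1, the cholesterol exporter, had 7.62, 28.2 and 20.8 CPM in control cells and 2.67, 34.3 and 29.9 CPM in MLL1 KD cells. Replicate 1 was below every other library, with a log2 fold change of -2.51 ± 0.28 (SE), and the related exporter ABCG1 fell by 0.66 (SE 0.09) on the log2 scale. SCARB1, which exchanges cholesterol with HDL, rose by 0.72 ± 0.09 (SE), a call lost without MLL1 KD replicate 1. A sterol regulatory element was searched in RefSeq's promoter table (GRCh38.p14) as TCAC and CCAC with 1 free base between them. The window, on either strand, ran from 250 bases before to 50 bases after the start. Of 18 sterol synthesis promoters only 1, that of SREBF2, held this string, as did 1.39% of 27305 genes with a promoter in that table. SREBF2 rose, as did 11 of the 17 without the string. Variant forms of the element were not searched.

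Chaperones of both compartments were higher in replicate 1. Among ER chaperones and unfolded protein response genes 11 of 19 rose and 2 fell, with a median of 1.00, and among heat shock proteins 11 of 16 rose and none fell, with a median of 0.95. Together the 35 genes of both lists took up 1.10% and 1.51% of the counts in the replicate 1 libraries against 0.637% to 0.705% in the other 4. An exact two-sided permutation test of that share gave p = 0.133, the smallest value that 2 against 4 libraries allow. CALR, the lectin chaperone calreticulin, had 1267, 403 and 417 CPM in control cells and 2001, 512 and 523 CPM in MLL1 KD cells. Its log2 fold change was 1.79 ± 0.06 (SE), with an adjusted p of 1.9e-14. HSPA5 (BiP), the main ER chaperone of the HSP70 family, had 182, 93.4 and 107 CPM in control cells and 552, 68.5 and 66.1 CPM in MLL1 KD cells. Its rise was seen in both replicate 1 libraries and was much larger in MLL1 KD replicate 1. CRELD2 rose by 1.98 ± 0.23 (SE), the HSP90 of the ER, HSP90B1, by 1.16 ± 0.08 (SE), and the disulfide isomerase PDIA4 by 1.69 ± 0.10 (SE). SDF2L1, a BiP cofactor, had 2.58, 2.21 and 1.40 CPM in control cells and 10.5, 1.56 and 0.864 CPM in MLL1 KD cells, and its call was lost without MLL1 KD replicate 1. Those that fell were XBP1, the transcription factor of the pathway, at -0.63 ± 0.08 (SE), and SEL1L, a part of the machinery that removes misfolded ER proteins, at -0.65 ± 0.10 (SE), and both calls were lost without control replicate 1. Other members of that degradation branch were not called, with EDEM1 at -0.35, HERPUD1 at -0.52 and SYVN1 at 0.16.

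In the cytosol, HSP90AA1, the inducible HSP90, had 777, 219 and 231 CPM in control cells and 618, 216 and 206 CPM in MLL1 KD cells. HSPH1, an exchange factor of HSP70, had 168, 46.6 and 54.4 CPM in control cells and 201, 60.5 and 51.7 CPM in MLL1 KD cells. In both genes every replicate 1 value was above every other value, with log2 fold changes of 1.67 ± 0.06 (SE) and 1.79 ± 0.09 (SE). HSPA8, the constitutive HSP70, had 1452, 606 and 598 CPM in control cells and 3355, 1037 and 1022 CPM in MLL1 KD cells, a log2 fold change of 1.49 ± 0.06 (SE) beside a higher level in KD cells. HSPE1, the mitochondrial co-chaperonin, had 5.94, 1.94 and 1.91 CPM in control cells and 11.3, 2.13 and 1.73 CPM in MLL1 KD cells and rose by 2.14 ± 0.30 (SE), and its partner HSPD1 rose by 1.02 ± 0.06 (SE). BAG3, another target of HSF1, was not called (-0.54 ± 0.17 (SE)). HSPA1A rose by 1.32 ± 0.52 (SE) and HSPA1B was at 0.88 ± 0.40 (SE) without a call, but the call of HSPA1A was lost in 13 of 18 alternatives, 5 of the 6 that leave out a library among them (all but control replicate 1), and these 2 genes are nearly identical, so that their reads may be split between them. Without MLL1 KD replicate 1, and in control libraries alone, 7 heat shock genes in place of 11 were called.

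The promoters of these genes carry response elements that are easy to read. The following RefSeq promoters (GRCh38.p14, 250 bases before to 50 bases after the start, on the gene's strand) are shown because HSPA5 and CALR hold the ER stress response element, searched as CCAAT and CCACG with 9 free bases between them, and HSP90AA1 and HSPA8 the heat shock element, searched as GAA, TTC and GAA with 2 free bases between neighbours, on one strand or the other. Capitals mark the matches.
HSPA5 (chr9:125241294-125241593, minus strand): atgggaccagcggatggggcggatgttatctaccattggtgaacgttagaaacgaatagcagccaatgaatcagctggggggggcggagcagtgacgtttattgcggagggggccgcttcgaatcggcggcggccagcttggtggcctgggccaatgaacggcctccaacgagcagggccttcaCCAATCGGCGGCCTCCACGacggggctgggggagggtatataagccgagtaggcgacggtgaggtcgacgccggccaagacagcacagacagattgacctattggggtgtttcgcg
CALR (chr19:12938359-12938658, plus strand): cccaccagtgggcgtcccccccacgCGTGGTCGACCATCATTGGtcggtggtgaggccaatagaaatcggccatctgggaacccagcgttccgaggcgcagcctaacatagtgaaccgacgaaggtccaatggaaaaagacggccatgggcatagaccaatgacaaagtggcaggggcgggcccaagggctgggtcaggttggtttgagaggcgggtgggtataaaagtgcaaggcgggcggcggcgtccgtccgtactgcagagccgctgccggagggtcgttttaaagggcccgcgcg
HSP90AA1 (chr14:102086995-102087294, minus strand): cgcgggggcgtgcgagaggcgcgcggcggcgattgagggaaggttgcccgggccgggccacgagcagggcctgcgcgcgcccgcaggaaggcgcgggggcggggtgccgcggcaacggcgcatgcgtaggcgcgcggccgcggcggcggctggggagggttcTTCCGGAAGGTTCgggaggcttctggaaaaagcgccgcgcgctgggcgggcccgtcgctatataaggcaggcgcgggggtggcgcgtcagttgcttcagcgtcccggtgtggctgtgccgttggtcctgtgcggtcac
HSPA8 (chr11:123062087-123062386, minus strand): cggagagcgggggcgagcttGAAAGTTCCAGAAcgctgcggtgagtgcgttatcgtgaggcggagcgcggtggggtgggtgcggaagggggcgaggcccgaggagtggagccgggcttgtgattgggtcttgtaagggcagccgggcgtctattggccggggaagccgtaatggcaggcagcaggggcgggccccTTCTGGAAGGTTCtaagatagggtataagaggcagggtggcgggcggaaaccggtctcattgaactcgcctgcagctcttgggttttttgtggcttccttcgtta
The ER element was found in 7 of 18 promoters of the ER list and in 25 of 27305 genes overall (0.0916%), and 5 of those 7 genes rose, as did 5 of the 11 without it. XBP1, which fell, and CANX, at 0.43 without a call, also held it. The heat shock element was found in 6 of 16 promoters of the heat shock list and in 0.608% of all genes, and 5 of those 6 genes rose, as did 6 of the 10 without it. A match describes the letters of this window and not binding of a factor.

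**Figure D2:**
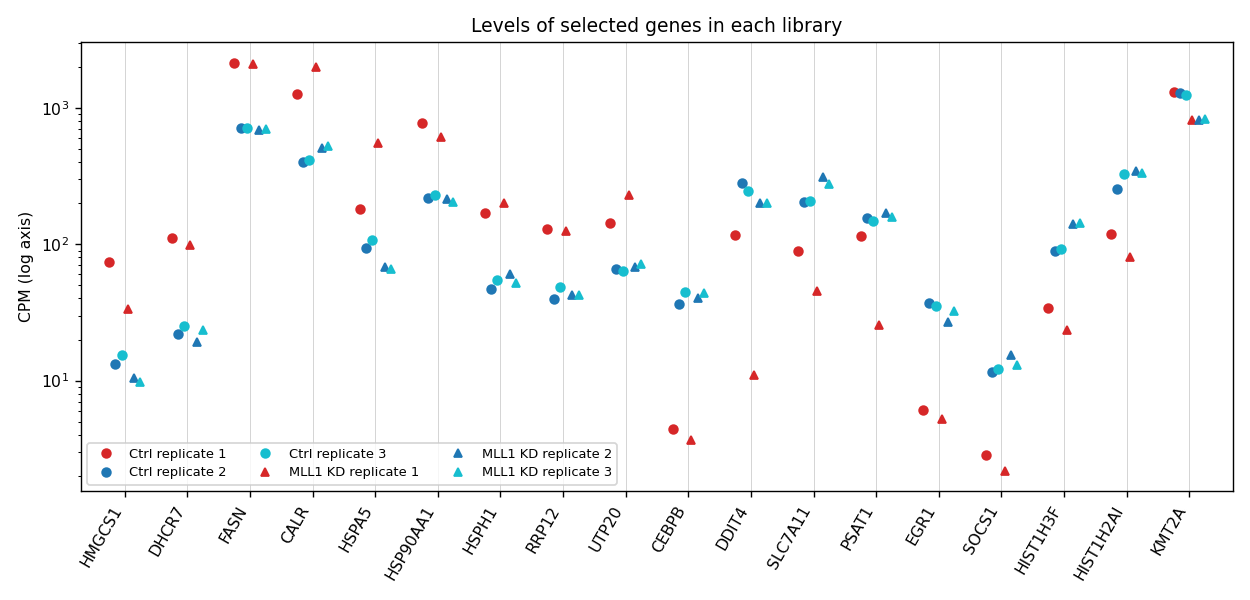
Levels of selected genes in each of the 6 libraries, in CPM on a log axis, with circles for control and triangles for MLL1 KD cells, and red for replicate 1. The red points lie above the blue ones from HMGCS1 to UTP20 and below them from CEBPB to HIST1H2AI, while KMT2A is separated by knockdown (1256 to 1321 CPM in controls, 812 to 833 CPM in KD cells) and not by replicate.

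Most ribosome assembly factors rose. Of 36 tested, 26 rose, none fell, all 36 had a log2 fold change above 0 and the median was 0.78. RRP12, needed for export of both ribosomal subunits, had 130.0, 39.6 and 48.6 CPM in control cells and 126, 42.5 and 42.4 CPM in MLL1 KD cells. UTP20, a part of the small-subunit processome, had 143, 65.9 and 64.05 CPM in control cells and 230.1, 68.1 and 71.6 CPM in MLL1 KD cells. The replicate 1 values did not overlap the others, with log2 fold changes of 1.56 ± 0.09 (SE) and 1.44 ± 0.10 (SE). RRP9, another processome protein, rose by 1.44 ± 0.12 (SE), NOP2, an rRNA methyltransferase, by 1.43 ± 0.10 (SE), and POLR1C, a subunit shared by RNA polymerases I and III, by 1.47 ± 0.16 (SE). Subunits of RNA polymerase I rose together with them, POLR1A by 1.12 ± 0.08 (SE) and POLR1B by 0.90 ± 0.11 (SE), and CD3EAP, despite its name a polymerase I subunit too and outside the list, had 34.2, 10.5 and 9.93 CPM in control cells and 58.8, 11.3 and 10.3 CPM in MLL1 KD cells and rose by 2.12 ± 0.16 (SE). Among members that were not called, NPM1 was at 0.50, FBL at 0.25 and DKC1 at 0.32. MYC, the transcription factor best known for driving these genes, was at -0.04 ± 0.06 (SE) on the log2 scale and not called. In the list of MYC, MAX and MXD genes MYCN rose (0.63 ± 0.14 (SE)) with 48.9, 21.4 and 23.4 CPM in control cells and 79.6, 65.9 and 69.4 CPM in MLL1 KD cells, so that its control replicate 1 value lay below those of the KD libraries, and the MYC antagonists MXD3 and MXI1 fell (-0.76 ± 0.22 (SE) and -0.64 ± 0.17 (SE)), 3 calls among 12 tested, near the 21.5% of all genes. Each of the 3 calls was lost in a fit that left out 1 library, MYCN without any one of the control replicates, MXD3 without MLL1 KD replicate 1, and MXI1 without MLL1 KD replicate 1 or 3.

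The genes for the ribosome's own proteins did not move in the same way. Of 79 tested, 2 rose, 1 fell and the median was 0.04, and they took up 4.74% and 4.37% of the counts in the replicate 1 libraries against 4.45% to 4.73% in the others (exact two-sided permutation p = 0.933). The 3 called were RPS28 (0.68 ± 0.07 (SE)), RPS29 (-1.14 ± 0.11 (SE)) and RPS10 (1.46 ± 0.42 (SE)), the last at 0.830 to 4.65 CPM and not called without control replicate 1. Counts at the ribosomal RNA loci were lower in replicate 1. RNA45SN3, a copy of the 45S precursor that RNA polymerase I makes, had 1355, 9166 and 10727 CPM in control cells and 1306, 10971 and 10856 CPM in MLL1 KD cells. RNA45SN2 had 1189, 8469.8 and 10192 CPM in control cells and 1079.7, 10197 and 9989 CPM in MLL1 KD cells. Both replicate 1 libraries were lower by nearly the same factor, with log2 fold changes of -2.97 ± 0.06 (SE) and -3.097 ± 0.07 (SE), although reads cannot be told apart between such identical copies. RNA28SN5, by contrast, was high in 2 libraries only, with 1.68, 58.5 and 2.80 CPM in control cells and 0.297, 1.84 and 120.4 CPM in MLL1 KD cells, and its call has an SE of 1.37. The 19 genes made up of the ribosomal RNA loci and MIR663A, a microRNA gene, took up 0.252% of counts in each replicate 1 library and 2.04% to 2.32% in the other 4. These transcripts lack poly(A) tails, so that their share also depends on how completely poly(A) capture removed them; the part of capture in these results was not tested. With these loci and the listed histone genes left out of totals and tests, 3048 of the 3093 called genes were called in the same direction.

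UTP20 and RRP9 of the ribosome list are shown because they carry the E-box CACGTG, the site of MYC and related factors, close to their starts (capitals).
UTP20 (chr12:101279855-101280154, plus strand): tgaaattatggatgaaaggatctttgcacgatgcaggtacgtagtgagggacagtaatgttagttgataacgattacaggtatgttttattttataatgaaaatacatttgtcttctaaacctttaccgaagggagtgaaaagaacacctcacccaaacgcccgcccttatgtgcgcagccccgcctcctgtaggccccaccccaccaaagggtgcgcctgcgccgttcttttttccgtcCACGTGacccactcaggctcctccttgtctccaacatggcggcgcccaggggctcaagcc
RRP9 (chr3:51941855-51942154, minus strand): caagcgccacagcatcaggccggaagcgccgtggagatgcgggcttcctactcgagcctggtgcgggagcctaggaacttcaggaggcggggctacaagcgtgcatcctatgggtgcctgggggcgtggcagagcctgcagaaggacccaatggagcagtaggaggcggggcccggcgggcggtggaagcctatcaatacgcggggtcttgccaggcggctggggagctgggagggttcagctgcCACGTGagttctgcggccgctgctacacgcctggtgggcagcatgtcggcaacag
The first base of the match lies 10 bases before the start in UTP20 and 5 bases before it in RRP9. An E-box was found in 16 of 30 promoters of the list and in 8.77% of all genes, and 11 of those 16 genes rose, as did 11 of the 14 without one.

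**Figure D3:**
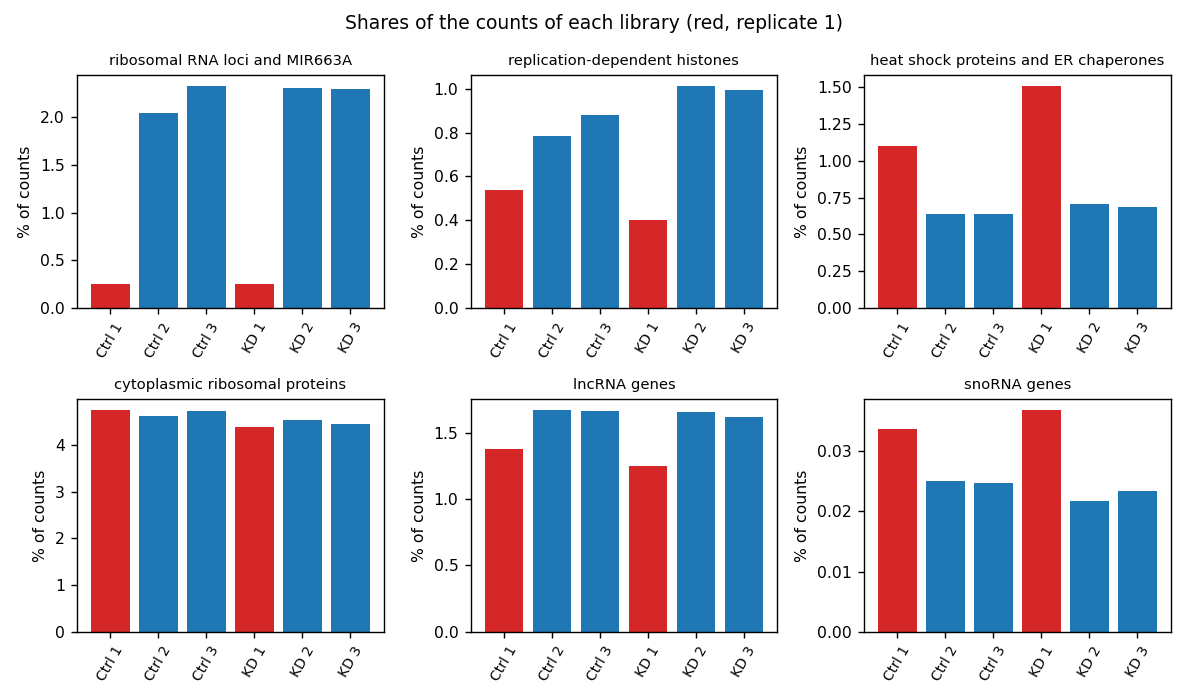
Share of the counts of each library taken by 6 gene classes, in percent, with replicate 1 in red and the other libraries in blue. Ribosomal RNA loci were at 0.252% in both replicate 1 libraries and 2.04% to 2.32% in the others, while cytoplasmic ribosomal proteins stayed between 4.37% and 4.74% in all 6.

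The cell cycle lists did not move in one direction. Among DNA replication and nucleotide synthesis genes 16 of 40 rose and 1 fell, with a median of 0.50. FEN1, the flap endonuclease of lagging-strand synthesis, had 67.1, 36.4 and 37.3 CPM in control cells and 72.96, 32.6 and 30.4 CPM in MLL1 KD cells. POLE, the catalytic subunit of the leading-strand polymerase, had 429, 236 and 238 CPM in control cells and 448, 212 and 236 CPM in MLL1 KD cells. Replicate 1 was above the other libraries for both (1.04 ± 0.11 (SE) and 0.93 ± 0.06 (SE)), as it was for GINS1 of the replicative helicase (0.97 ± 0.10 (SE)) and for UHRF1, which links replication to maintenance of DNA methylation (0.97 ± 0.09 (SE)). E2F2 was the one that fell (-0.69 ± 0.09 (SE)), a call lost without MLL1 KD replicate 1. CCND1, cyclin D1, which is not a member of the list, had 33.6, 9.82 and 5.98 CPM in control cells and 23.3, 4.96 and 4.65 CPM in MLL1 KD cells, a log2 fold change of 2.18 ± 0.18 (SE). In contrast, no mitosis gene rose and 9 of 35 fell, with a median of -0.15, where 12.3% of all genes were lower. The median of the mitosis list was -0.01 in control libraries alone and -0.25 in MLL1 KD libraries alone. HMMR, a spindle protein, had 58.6, 97.95 and 97.2 CPM in control cells and 29.4, 122 and 115 CPM in MLL1 KD cells. CENPE, the kinesin of the kinetochore, had 52.3, 103 and 94.1 CPM in control cells and 37.7, 118 and 122 CPM in MLL1 KD cells. Replicate 1 was lowest in both (-1.33 ± 0.17 (SE) and -1.29 ± 0.13 (SE)), and CENPA, the centromeric histone, fell by 1.04 (SE 0.13) and the kinase NEK2 by 0.95 (SE 0.15). CCNB1 and CDC20, which peak in the same phase, were not called (0.28 and -0.09). Without MLL1 KD replicate 1 the count of mitosis genes that fell was 5 of 35 in place of 9, where 1264 of all 14393 genes tested fell.

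Replication-dependent histone genes were lower as a block. Of 39 tested, 32 fell, none rose, all 39 had a log2 fold change below 0 and the median was -0.89. HIST1H3F, a histone H3 gene (chr6:26250142-26250635, hg38), had 33.8, 89.5 and 92.4 CPM in control cells and 23.7, 139.9 and 144 CPM in MLL1 KD cells. HIST1H2AI, a histone H2A gene, had 118, 256 and 326 CPM in control cells and 80.6, 345 and 331 CPM in MLL1 KD cells. The replicate 1 libraries were lowest in both, with log2 fold changes of -2.001 ± 0.17 (SE) and -1.67 ± 0.13 (SE), and HIST1H3H and HIST1H3D fell by 1.89 and 1.696. The 41 listed genes took up 0.540% and 0.401% of counts in replicate 1 and 0.784% to 1.01% in the others. Without MLL1 KD replicate 1, and equally in control libraries alone, 18 histone genes were called lower. The median was -0.57 in control and -1.32 in KD libraries. Many of these genes are near copies of each other and their mRNAs lack poly(A) tails, and the fall in ribosomal RNA counts runs in the same direction; its part in the histone values was not tested. Among variant histones outside the list, H1FX, a linker histone, had 65.1, 297 and 318 CPM in control cells and 50.6, 294 and 278 CPM in MLL1 KD cells. H2AFX, which marks DNA breaks when phosphorylated, had 209.7, 552 and 623 CPM in control cells and 284, 687 and 664 CPM in MLL1 KD cells. Their falls (-2.37 ± 0.09 (SE) and -1.36 ± 0.07 (SE)) had among the lowest adjusted p of all, 6.4e-14 and 1.8e-11.

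Targets of ATF4 formed the other large group that was lower. Of 33 listed genes 30 were tested, 20 fell and 1 rose, with a median of -0.84. CEBPB, a partner of ATF4 (chr20:50190830-50192668, hg38), had 4.39, 36.4 and 44.7 CPM in control cells and 3.66, 40.1 and 43.8 CPM in MLL1 KD cells. Its fall was nearly equal in both groups (-3.37 ± 0.18 (SE), 10.3-fold lower). DDIT4, an inhibitor of mTORC1, had 117, 281 and 247 CPM in control cells and 10.99, 201 and 199.5 CPM in MLL1 KD cells. SLC7A11, the cystine importer, had 89.99, 204 and 206 CPM in control cells and 45.4, 309 and 279 CPM in MLL1 KD cells. In these genes, too, replicate 1 was below all other libraries, but the drop was deeper in MLL1 KD replicate 1, with overall log2 fold changes of -2.21 ± 0.34 (SE) and -1.88 ± 0.20 (SE). Among amino acid synthesis genes ASNS, for asparagine, fell by 1.44 (SE 0.29), PSAT1, for serine, by 1.34 (SE 0.28), PHGDH, the first step to serine, by 0.95 (SE 0.14) and CBS, for cystathionine, by 1.77 (SE 0.33). The transcription factors DDIT3 (CHOP), ATF3 and ATF5 fell by 1.29, 1.21 and 0.89, and the aminoacyl-tRNA synthetases WARS and AARS by 1.64 and 0.80, while GARS was at -0.42 ± 0.13 (SE) and not called. ALDH18A1, of proline synthesis, rose by 0.86 ± 0.10 (SE). ATF4 mRNA itself was at 0.06 ± 0.09 (SE). The count depends on MLL1 KD replicate 1, since 9 members in place of 20 were called lower without that library, and PSAT1, PHGDH, ATF3 and AARS were among those no longer called. ALDH1L2, a mitochondrial folate enzyme outside the list, had 7.62, 21.7 and 28.6 CPM in control cells and 1.19, 28.6 and 30.5 CPM in MLL1 KD cells and was among the 10 largest falls (-2.76 ± 0.35 (SE)).

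The C/EBP-ATF response element, the composite site of ATF4 and its partners, searched as TGATG and AA with 1 free base between them on both strands, was found in 9 of 25 promoters of the list, against 4.46% of all genes. ASNS and CHAC1, a glutathione-degrading enzyme that fell by 1.18 (SE 0.20) but was not called without MLL1 KD replicate 1, are shown with their matches in capitals.
ASNS (chr7:97872359-97872658, minus strand): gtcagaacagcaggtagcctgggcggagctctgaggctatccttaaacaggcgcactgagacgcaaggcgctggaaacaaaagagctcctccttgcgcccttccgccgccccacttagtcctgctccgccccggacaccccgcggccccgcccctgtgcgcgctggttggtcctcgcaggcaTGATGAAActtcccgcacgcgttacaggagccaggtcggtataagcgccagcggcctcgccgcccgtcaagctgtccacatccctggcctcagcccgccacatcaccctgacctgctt
CHAC1 (chr15:40953221-40953520, plus strand): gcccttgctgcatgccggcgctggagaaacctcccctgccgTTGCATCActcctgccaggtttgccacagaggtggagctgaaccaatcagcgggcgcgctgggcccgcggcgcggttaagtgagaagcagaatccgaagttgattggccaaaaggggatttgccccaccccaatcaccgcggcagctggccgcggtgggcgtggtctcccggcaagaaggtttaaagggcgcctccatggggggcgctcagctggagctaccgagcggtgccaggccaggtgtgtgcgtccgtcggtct
Of the 9 genes with a match 6 fell, and of the 16 without one 11 fell.

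The size of the replicate 1 difference in the control and in the KD libraries was compared as an interaction. Of 14393 genes 431 (2.99%) were called, 121 (0.841%) with a higher and 310 (2.15%) with a lower replicate 1 difference in KD cells, and 2527 had an unadjusted p under 0.05. DESeq2 with the same term called 139, 29 higher and 110 lower. Of the 431, 366 had an interaction of the same sign as the overall difference and 238 were also called in the main comparison. Each side of this test has a single replicate 1 library, so that it compares 2 single libraries against the spread of the others and cannot tell a difference between control and KD cells from one between these 2 libraries. The counts by list are those of edgeR. In the ATF4 list 20 of 30 members were called lower and none higher. PSAT1 had 115, 156 and 148 CPM in control cells and 25.7, 171 and 158 CPM in MLL1 KD cells, an interaction of -2.27 ± 0.14 (SE). For DDIT4 the interaction was -3.02 ± 0.15 (SE), for ASNS -2.09 ± 0.38 (SE), and for ATF4 itself -0.59 ± 0.08 (SE). Control replicate 1 lay moderately below its group, with a list median of -0.39, and MLL1 KD replicate 1 far below, with -1.22. Of 39 histone genes 26 were called lower in the same test and of 35 mitosis genes 8. Of the 19 ER genes 5 were called higher and none lower. HSPA5 had an interaction of 2.18 ± 0.11 (SE), and MANF, a secreted ER stress protein, had 1.38 ± 0.23 (SE). No heat shock, sterol or fatty acid gene was called.

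**Figure D4:**
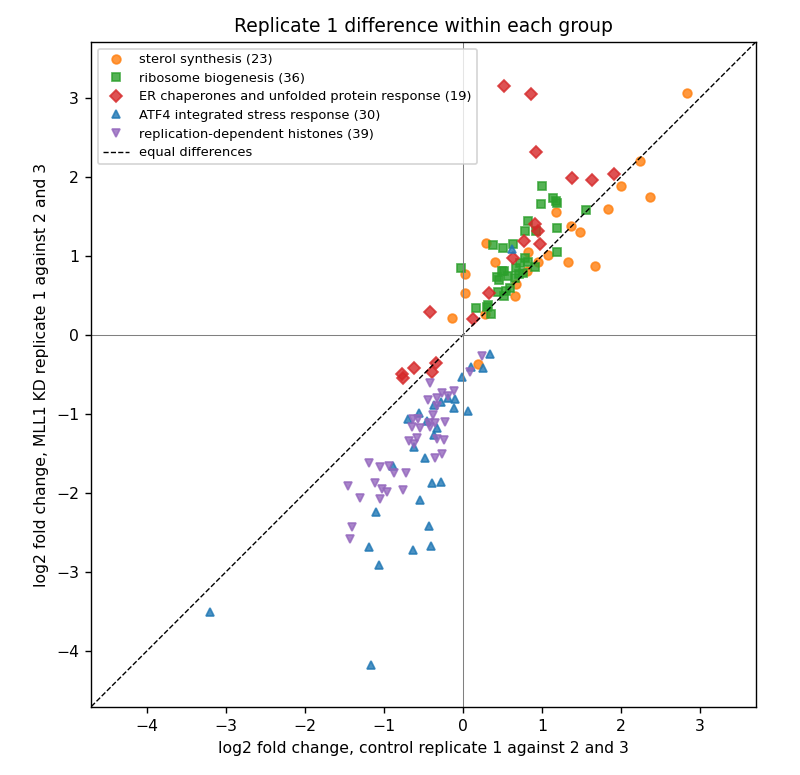
Log2 fold change of replicate 1 against replicates 2 and 3 in control libraries (x axis) and in MLL1 KD libraries (y axis), each point a tested member of 5 gene lists, with the dashed line where both are equal. Sterol genes scatter along the line (medians 0.95 and 0.93), while ATF4 targets (-0.39 and -1.22) and histones (-0.57 and -1.32) lie below it.

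Signal-responsive genes were mixed. Of 28 tested immediate early genes, which respond to growth factors within minutes, 11 fell and 5 rose, with a median of -0.11. EGR1 had 6.07, 37.2 and 35.5 CPM in control cells and 5.25, 26.9 and 32.4 CPM in MLL1 KD cells. All 4 libraries of replicates 2 and 3 were well above replicate 1 (-2.54 ± 0.17 (SE)), and JUN, JUNB and JUND fell by 0.85, 0.70 and 0.88. The low-level nuclear receptor NR4A2 fell too (-1.88 ± 0.46 (SE)). Among the members that rose, the transcription factors ETV5 and FOSL1 rose by 1.596 ± 0.11 (SE) and 1.26 ± 0.13 (SE), and the phosphatases DUSP5 and DUSP6, which act on MAP kinases, by 0.93 ± 0.16 (SE) and 0.75 ± 0.11 (SE). The calls of JUN, NR4A2 and DUSP5 were lost without MLL1 KD replicate 1 and that of JUNB without control replicate 1. Of 15 JAK-STAT feedback genes 2 fell and none rose, a share near the 12.3% of all genes that were lower. SOCS1, an inhibitor of JAK kinases, had 2.84, 11.6 and 12.2 CPM in control cells and 2.18, 15.3 and 13.1 CPM in MLL1 KD cells. PIM1, a kinase gene induced by STAT5, had 511, 1147 and 1197 CPM in control cells and 439, 1052 and 1099 CPM in MLL1 KD cells. Both were lower in replicate 1 without overlap (-2.39 ± 0.25 (SE) and -1.24 ± 0.05 (SE)), whereas SOCS2, also a STAT5 target, was at -0.40 without a call.

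Interferon-stimulated genes gave 9 falls and no rise among 31 tested, with a median of -0.40. IFIH1, a sensor of double-stranded RNA, had 15.2, 36.2 and 39.1 CPM in control cells and 11.4, 32.04 and 33.9 CPM in MLL1 KD cells. SAMD9L had 8.005, 22.1 and 19.99 CPM in control cells and 8.22, 26.7 and 22.5 CPM in MLL1 KD cells. Replicate 1 lay below the rest in both (-1.42 ± 0.14 (SE) and -1.49 ± 0.17 (SE)), and XAF1 and MX1 fell by 1.74 and 1.39, while ISG15 was at -0.34. In MHC class I antigen presentation 2 of 16 fell, HLA-E (-1.01 ± 0.13 (SE)) and HLA-F (-0.84 ± 0.23 (SE)), shares that are near those of all genes. Of 17 NF-kB targets and cytokines CD83 rose (1.06 ± 0.21 (SE)) and BIRC3 and IRF1 fell (-0.93 ± 0.19 (SE) and -0.75 ± 0.11 (SE)), no larger a share than the 21.5% of all genes called. Among 16 p53 targets 5 fell and 2 rose, where 12.3% of all genes were lower and 9.16% higher. BBC3 (PUMA), which promotes cell death, had 8.39, 24.5 and 28.6 CPM in control cells and 2.38, 16.6 and 21.2 CPM in MLL1 KD cells and fell by 2.19 on the log2 scale, TP53INP1 fell by 1.17, GDF15 by 0.97 and the low-level TP53I3 by 1.36. The cell cycle inhibitor CDKN1A rose by 0.86 ± 0.22 (SE) and AEN by 0.72 ± 0.13 (SE), and MDM2, a direct target that feeds back on p53, was at 0.17. Without control replicate 1 the call of IRF1 was lost, and that of TP53I3 without either of control replicates 1 and 2 or of MLL1 KD replicates 1 and 3. Without MLL1 KD replicate 1, 2 p53 targets in place of 5 were called lower, with TP53INP1 among those lost. The calls of CDKN1A and HLA-F were lost too. In that fit 1264 of all 14393 genes tested were called lower.

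Erythroid genes showed no single direction. Among 9 tested globins 4 rose and none fell, with a median of 0.45. HBA1 had 407, 224 and 227 CPM in control cells and 342, 118 and 132 CPM in MLL1 KD cells. HBG2 had 400.1, 255 and 278 CPM in control cells and 254, 151 and 166 CPM in MLL1 KD cells. HBA1 was highest in both replicate 1 libraries (1.15 ± 0.09 (SE)), but for HBG2 (0.63 ± 0.07 (SE)) the replicate 1 value of KD cells lay just below the 3 control values, as KD libraries were lower throughout. HBA2 (1.03 ± 0.10 (SE)) is nearly identical to HBA1, and HBE1, the embryonic globin, rose by 0.70 ± 0.10 (SE). Of 30 erythroid transcription factor, receptor and membrane genes 5 fell and 1 rose, with a median of -0.24, shares not far from those of all genes (12.3% lower, 21.5% in either direction). EPOR, the erythropoietin receptor, had 23.6, 45.1 and 41.5 CPM in control cells and 13.96, 30.5 and 34.1 CPM in MLL1 KD cells. Both replicate 1 libraries were below all 4 others (-1.03 ± 0.14 (SE)), and ZFPM1, the GATA1 cofactor FOG1, fell by 0.83, while EPB42, of the membrane skeleton, rose by 0.82 ± 0.09 (SE). GATA1, KLF1 and TAL1 were not called (-0.21, -0.28 and -0.13). Without control replicate 1, 8 members were called lower. In heme synthesis 3 of 14 tested genes fell, PPOX (-0.87 ± 0.15 (SE)) and the transporter ABCB10 (-0.81 ± 0.11 (SE)) among them, and GLRX5, of iron-sulfur cluster assembly, rose (0.70 ± 0.12 (SE)). In the iron list 3 of 17 fell. Both this list and the heme list are small, and of all genes 12.3% were lower and 21.5% called in either direction. TFR2, transferrin receptor 2, had 175, 356 and 363 CPM in control cells and 185, 365 and 381 CPM in MLL1 KD cells. FTH1, the ferritin heavy chain, had 439, 755 and 781 CPM in control cells and 443, 741 and 854 CPM in MLL1 KD cells. Both were lower in replicate 1 without overlap (-1.02 ± 0.06 (SE) and -0.83 ± 0.06 (SE)), and the third was POLD4 (-0.67 ± 0.20 (SE)), a DNA polymerase subunit that the list holds although it is not an iron gene. The calls of POLD4 and GLRX5 were lost without MLL1 KD replicate 1, and that of POLD4 also without MLL1 KD replicate 3. TFRC, the main transferrin receptor, was at 0.46 and not called.

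HEL cells also express megakaryocyte genes, and of 21 tested 5 rose and 5 fell, where 9.16% of all genes were higher and 12.3% lower. THBS1, thrombospondin, rose by 1.49 ± 0.09 (SE) with 55.1, 17.02 and 19.99 CPM in control cells and 207, 78.7 and 74.98 CPM in MLL1 KD cells. Its level was higher in the KD libraries as well as in replicate 1 of each group. GP6, GP1BA and PF4 rose by 1.11 ± 0.30 (SE), 1.01 ± 0.08 (SE) and 0.95 ± 0.20 (SE). RGS18, a regulator of platelet signalling, had 44.4, 94.5 and 92.95 CPM in control cells and 51.2, 134 and 116 CPM in MLL1 KD cells. TUBB1, platelet tubulin, had 22.98, 45.8 and 44.3 CPM in control cells and 8.32, 23.3 and 27.01 CPM in MLL1 KD cells. Their falls (-1.19 ± 0.10 (SE) and -1.24 ± 0.16 (SE)) were accompanied by those of CD9 (-1.36 ± 0.26 (SE)) and GP9 (-1.14 ± 0.09 (SE)). Of 10 mast cell, basophil and eosinophil genes GATA2 fell (-0.74 ± 0.06 (SE)), with 1157, 1741 and 1788 CPM in control cells and 725, 1303 and 1349 CPM in MLL1 KD cells, and KIT rose (0.62 ± 0.10 (SE)). The share called in that list was near the 21.5% of all genes. The call of GP6 was lost without control replicate 1, that of PF4 without MLL1 KD replicate 1 and that of KIT without MLL1 KD replicate 1 or 3. Among markers of other cells, CSF3R, the G-CSF receptor of neutrophils, fell by 1.93 (SE 0.29) at 1.68 to 12.7 CPM and KRT8 by 0.88 (SE 0.20). THY1 was at 0.54 ± 0.07 (SE), under the 1.5-fold threshold although its adjusted p was 1.6e-06, and PDGFRB, CD4, CD2, CD79A and CD79B were not called (0.39, -0.19, -0.09, -0.41 and 0.46).

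Of 67 nuclear-encoded respiratory chain genes 11 rose and none fell, against 9.16% and 12.3% of all genes, 60 were above 0 and the median was 0.34. ATP5MC1 and ATP5MC3, which encode the same ring subunit of ATP synthase, rose by 0.96 ± 0.11 (SE) and 0.70 ± 0.10 (SE), ATP5PF by 0.93 ± 0.08 (SE) and the complex I gene NDUFB2 by 0.70 ± 0.24 (SE). SLIRP, which stabilises mitochondrial mRNAs, had 83.1, 27.9 and 26.5 CPM in control cells and 72.4, 14.5 and 12.9 CPM in MLL1 KD cells, a log2 fold change of 1.998 ± 0.14 (SE). The 13 mitochondrially encoded mRNAs have no row in the table under the symbols searched and were not analysed here. In glycolysis and the hypoxia response 6 of 32 rose and 3 fell, with a median of 0.26, where 21.5% of all genes were called. PGAM1, PFKP and LDHA, which are glycolytic enzymes, rose by 1.14 ± 0.09 (SE), 0.94 ± 0.07 (SE) and 0.89 ± 0.05 (SE), and the members that fell, NDRG1, BNIP3L and MXI1, are hypoxia-induced rather than glycolytic (-0.83 ± 0.19 (SE), -0.76 ± 0.08 (SE) and -0.64 ± 0.17 (SE)). NRF2 targets gave 3 rises, PRDX1 (0.997 ± 0.09 (SE)), TXN (0.71 ± 0.12 (SE)) and PGD (0.59 ± 0.06 (SE)), and 1 fall, SLC48A1 (-0.77 ± 0.11 (SE)), among 15, not far from the 21.5% of all genes called. Of 27 lysosome and autophagy genes ATP6V0D1 and CTSA rose (0.99 ± 0.10 (SE) and 0.66 ± 0.09 (SE)) and GABARAPL1 fell (-0.87 ± 0.17 (SE)), fewer calls than the 21.5% of all genes would give. Of 8 metallothionein and zinc response genes MT1G and the zinc sensor MTF1 rose (1.05 ± 0.38 (SE) and 0.66 ± 0.11 (SE)), near the 21.5% of all genes. Without MLL1 KD replicate 1 the calls of MT1G, MTF1, PGD, SLC48A1, NDRG1, MXI1, NDUFB2 and ATP5MC3 were lost. Those of NDUFB2 and MXI1 were also lost without MLL1 KD replicate 3, that of PGD without control replicate 2, and that of MT1G without control replicate 1, control replicate 2 or MLL1 KD replicate 3.

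Actin genes were partly higher. ACTB, cytoplasmic actin, which the study used as the internal control of its real-time PCR, had 6388, 3498 and 3451 CPM in control cells and 6424, 3284 and 3505 CPM in MLL1 KD cells. Its log2 fold change was 0.90 ± 0.04 (SE), with an adjusted p of 3.5e-13, and the groups did not overlap. Of 20 actin and SRF genes 6 rose, ACTN1 (1.12 ± 0.07 (SE)) and ACTG1 (0.69 ± 0.06 (SE)) among them, and 2 fell, smooth muscle actin ACTA2 (-2.22 ± 0.29 (SE)) and TPM2 (-1.39 ± 0.25 (SE)). Without control replicate 1, 3 of the list were called higher, and ACTG1 was not.

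Long non-coding RNAs ran lower. Of 867 tested lncRNA genes 18 rose and 181 fell, with a median of -0.35 against 0.00 for 11954 protein-coding genes, and their share of counts was 1.38% and 1.25% in replicate 1 against 1.62% to 1.67% in the others. In the list of nuclear and snoRNA host RNAs 5 of 20 fell and none rose. SNHG1, a snoRNA host, had 109.6, 246 and 241 CPM in control cells and 99.5, 258 and 242 CPM in MLL1 KD cells. GAS5, another host, had 127, 180.0 and 198 CPM in control cells and 79.7, 163 and 155 CPM in MLL1 KD cells. Replicate 1 was lowest in both (-1.24 ± 0.08 (SE) and -0.78 ± 0.09 (SE)), and ZFAS1 and EPB41L4A-AS1 fell as well (-0.84 ± 0.10 (SE) and -0.94 ± 0.15 (SE)), with the call of GAS5 lost without MLL1 KD replicate 1, while the nuclear RNA MALAT1 was at -0.45 without a call.

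Single genes with the largest differences complete the account. SRRT (ARS2), which binds the nuclear cap complex, had 270.5, 85.1 and 90.3 CPM in control cells and 344, 82.5 and 79.1 CPM in MLL1 KD cells. MIR663A had 40.02, 2362 and 1984 CPM in control cells and 204, 1622 and 1703 CPM in MLL1 KD cells. SRRT was higher in both replicate 1 libraries (1.87 ± 0.09 (SE)), and MIR663A was lower (-4.07 ± 0.36 (SE), 16.8-fold), far more so in control than in MLL1 KD replicate 1. MIR663A is counted above with the ribosomal RNA loci, which were lower in the same libraries. Whether its reads stem from the microRNA or from ribosomal RNA was not tested. Other large falls were those of ANKFN1 (-3.305 ± 0.29 (SE)), SYTL1, a partner of RAB27 in vesicle transport (-2.75 ± 0.20 (SE)), SLC9A9, an endosomal sodium-proton exchanger (-2.704 ± 0.28 (SE)), and YPEL3 (-2.64 ± 0.20 (SE)). YPEL3 had 6.84, 29.2 and 33.5 CPM in control cells and 4.75, 36.2 and 43.3 CPM in MLL1 KD cells. In all 4 genes both replicate 1 libraries were below every other library.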

How the data were processed

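The MLL1 RNA-seq table holds 1 count per gene and library for 28103 gene symbols in 6 libraries. The authors filtered reads with fastp version 0.13.1, mapped them to hg38 with HISAT2 version 2.1.0 and made the deposited counts per gene by strand with featureCounts version 1.6.1 (versions also per the submitters' processing notes); the annotation behind the symbols is not given in the sources used here. The values are whole numbers and totals differ between libraries. Reads that match several near-identical genes may be lost or split, and poly(A) capture lowers RNAs without tails.

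Samples were grouped by the replicate number and genotype of their labels. Symbols were matched to GENCODE version 44 (92.3%; 703 through an older symbol) for exon length and GC content. A mean TPM of 1 or more (mean CPM where no length was found) was required of genes tested, and these were fitted with edgeR 4.0.16 (R 4.3.3), TMM factors and a quasi-likelihood fit of knockdown and replicate 1; the interaction was added in a second fit. Calls needed a fold change of at least 1.5 and a Benjamini-Hochberg adjusted p under 0.05. Shares of counts were compared by exact permutation (scipy 1.17.1). On simulated counts for these 14393 genes the main fit recovered 100% of 100 genes changed 2-fold with 2 false calls, and the interaction fit 48% of 2-fold and 99% of 4-fold changes with 8 false calls. The changed genes were drawn only from genes with many expected counts, and all genes had the same fixed dispersion. The main simulation held no knockdown effect. Recovery of genes with few counts, or with the spread of the real libraries, was therefore not measured. DESeq2 1.42.0, other normalizations, filters and thresholds, offsets for GC content and length, a replicate block, and each library left out were alternatives. Totals of 6966345 to 10380241 counts limit precision for genes of a few CPM.

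The split by replicate number, the 37 gene lists and the tests were chosen with earlier results of these data known, in which replicate 1 already stood apart; the counts are therefore descriptions and not independent evidence. Named genes are KMT2A, the 10 largest rises and falls among separated genes with a mean of at least 10 CPM, the 5 lowest adjusted p in each direction, up to 4 called members per list with the largest change (or 2 tested members of highest level where none was called), and the 5 interaction genes of lowest adjusted p; further list members are named to show counts, called or not, and were chosen after their values were seen. Some genes that the rule names are not reported here. Promoters come from RefSeq (GRCh38.p14). The AF9 experiment was processed separately and enters no test, and the remaining samples of the series were not used here.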

Additional observations from a re-analysis of the deposited data

Results flagged for a closer look

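For 22 named genes the replicate 1 difference was not the same in the control and the MLL1 KD libraries by the interaction test (edgeR's quasi-likelihood test, fold of at least 1.5 and Benjamini-Hochberg adjusted p under 0.05; 2.99% of all genes were called). The values are log2 differences, KD minus control. Among ATF4 targets and neighbours of that pathway all were negative, at -3.02 for DDIT4, -2.89 for ALDH1L2, -2.27 for PSAT1, -1.86 for CBS, -1.503 for SLC7A11 and -1.04 for GARS, the last of which was not called in the main comparison. HSPA5 and SDF2L1 were positive at 2.18 and 2.62. MIR663A, counted above with the ribosomal RNA loci, had the largest positive value of these genes, 2.74, since its control replicate 1 was the lowest library.

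Negative values were also found for the cholesterol exporter ABCA1 (-1.896), for XAF1 (-1.55), BBC3 (-1.33), the mitosis genes HMMR (-1.28) and CENPE (-0.76), MYCN (-0.89) and the histones HIST1H3F (-1.16), HIST1H3H (-1.03) and HIST1H2AI (-0.77). SLIRP (0.80), POLR1C (0.87) and the alpha globins HBA1 (0.60) and HBA2 (0.60) were positive. Each of these compares 1 control with 1 KD library of replicate 1, so that a difference between these 2 libraries cannot be told apart from one between the groups.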

How the results depend on the processing

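Of 167 called genes followed through 19 alternatives, 113 were called under every one and none changed direction, and 126 were called in every fit that left out 1 library. Over the whole table the count of 3093 ranged from 2297 to 3701 with 1 library left out (1033 to 1639 higher, 1264 to 2062 lower), and 1604 genes were called in all of these fits; the largest loss was without MLL1 KD replicate 1, where 1913 of the 3093 were called. List members called higher ranged from 119 to 147 and lower from 95 to 154 in the same fits. With no fold change threshold 6252 genes were called (3181 higher, 3071 lower) and at 2-fold 1122 (317 and 805). DESeq2 on the same genes shared 2774 calls with edgeR, and gave 139 interaction calls (29 higher, 110 lower) in place of 431. The fit with a replicate block of 3 levels gave 2981 calls (1297 higher, 1684 lower), 2968 of them among the 3093; here the replicate number is itself the comparison, so that no pairing of samples is assumed. With GC content offsets 2598 and with total counts in place of TMM 2853 calls were shared; the share of calls that were higher was 42.6% with TMM and 34.5% with total counts. Leaving out ribosomal RNA loci and histones was chosen after seeing the data. Some uncalled differences changed sign, all of them near 0 in the main fit except that of GARS. KMT2A was at -0.068 with GC content offsets, -0.013 in MLL1 KD libraries alone, -0.014 with a mean TPM of at least 5 and -0.043 with total counts, and from -0.013 to 0.049 with a library left out. ATF4 was at -0.048 with GC content offsets and -0.24 in KD libraries alone (-0.24 to 0.35 with a library left out), and SREBF1 at -0.013 in KD libraries alone (-0.013 to 0.16). CD2 was at 0.083 in KD libraries alone (-0.39 to 0.082), GARS at 0.067 (-0.96 to 0.067) and MYC at 0.096 (-0.18 to 0.096) in control libraries alone. The cause was not tested. Of 322 list values 306 stayed within 1.5 times and none reversed; besides those given above, ATF4 targets called lower numbered 12 without the knockdown covariate and p53 targets 3 at a mean TPM of at least 5. Depth limits genes of a few CPM such as SDF2L1, NR4A2 and RPS10.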

Other observations

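Of 261 tested snoRNA genes 26 were higher in replicate 1, near the 9.16% of all genes, and 2 were lower, against 12.3% of all genes, with a median log2 fold change of 0.67, and their share of counts was 0.0337% and 0.0368% in replicate 1 against 0.0217% to 0.0250% in the other 4 libraries. Most snoRNA genes lie in introns, and reads of unspliced host transcripts and of snoRNAs cannot be told apart by these counts. Of 572 miRNA genes 6 were higher and 9 lower, shares below those of all genes. A filter on mean TPM admits short genes with few counts, for which a call is hard to reach. The part of low counts in the snoRNA and miRNA shares was not tested.

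The control libraries of the AF9 experiment, 2 further libraries of HEL cells, were normalized separately, and their levels are set beside those above without a test. HMGCS1 at 492 and 476 CPM there was above all 6 libraries and FASN at 212 and 317 CPM below them all. The fatty acid synthesis list as a whole summed to 8969 and 9007 CPM there, above its 2196 to 4577 CPM in the 6 libraries, and the sterol synthesis list to 5671 and 5508 CPM, above 1263 to 2943 CPM. HSPA5 was at 363 and 359 CPM, between control and MLL1 KD replicate 1. Heat shock proteins and ER chaperones took up 1.34% and 1.32% of counts, close to replicate 1. Ribosomal RNA loci with MIR663A took up 0.0482% and 0.0862%, and histones 0.0179% and 0.0184%, below all 6 libraries of the MLL1 experiment.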
